A study of Mus musculus with 14 samples.

Results

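H2A.Z peaks were examined at 6 genes that absorptive enterocytes of the small intestine express at high level: Vil1, Fabp2, Apoa1, Apoc3, Apoa4 and Sis. The genes were covered by 4 padded windows of the mouse genome build mm9, 286 kb in all, and every peak overlapping a window by at least 1 bp was taken. Across 8 libraries, 33 peaks lay in the windows, and joining those that overlapped or touched gave 12 regions of 45028 in the whole series. The windows were chr1:74436000-74502000 for Vil1, chr3:122578000-122622000 for Fabp2, chr9:46016000-46072000 for the Apoa1-Apoc3-Apoa4 cluster and chr3:72672000-72792000 for Sis. They were taken as given and not checked against an mm9 gene table, so no peak is assigned to a promoter, exon or intron.

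H2A.Z was mapped by chromatin immunoprecipitation and sequencing, with 2 libraries for each of 4 stages, in mice of a mixed C57BL/6 CD1 strain. The embryonic groups were EpCAM+CD31-CD45- epithelium of the small intestine at E12.5 and at E14.5. The adult groups came from male Lgr5EGFP-Cre-ERT mice at P60 and were Lgr5-EGFP high intestinal stem cells (ISC) and enterocytes, with no treatment named. EpCAM marks the epithelium as a whole, so the stated EpCAM+CD31-CD45- gate for enterocytes does not by itself remove other epithelial types. Peaks show where a histone variant was enriched and not which genes were expressed, so the identity of the cells could not be checked against their marker genes.

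H2A.Z is a variant of histone H2A that is placed mainly at the nucleosomes next to active or poised promoters, above all those rich in CpG, and at enhancers. Enterocytes line the villus, where they digest and take up nutrients. Vil1 encodes villin, an actin-bundling protein of the brush border, and Sis encodes sucrase-isomaltase, a brush border disaccharidase. Fabp2 encodes the intestinal fatty acid binding protein, and Apoa1, Apoc3 and Apoa4 encode apolipoproteins of chylomicrons and high-density lipoprotein.

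The sequence upstream of each gene's annotated start is shown for 1 gene per window, because H2A.Z is known to favour CpG-rich promoters. RefSeq's promoter table for the build GRCm38.p6 held 5 of the 6 genes. These coordinates belong to another build than the peaks and cannot be set beside them. Each sequence holds the 250 bases before the start, read 5′ to 3′ on the gene's strand, with every CpG in capitals. They lie at chr1:74409134-74409383 (plus strand) for Vil1, chr3:122894822-122895071 (plus) for Fabp2, chr9:46228380-46228629 (plus) for Apoa1 and chr3:72967864-72968113 (minus) for Sis.
Vil1: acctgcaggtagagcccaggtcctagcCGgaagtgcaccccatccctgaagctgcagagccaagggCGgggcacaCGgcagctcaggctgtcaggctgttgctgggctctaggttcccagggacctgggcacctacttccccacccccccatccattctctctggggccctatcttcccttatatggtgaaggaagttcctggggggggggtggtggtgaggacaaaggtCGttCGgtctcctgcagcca
Fabp2: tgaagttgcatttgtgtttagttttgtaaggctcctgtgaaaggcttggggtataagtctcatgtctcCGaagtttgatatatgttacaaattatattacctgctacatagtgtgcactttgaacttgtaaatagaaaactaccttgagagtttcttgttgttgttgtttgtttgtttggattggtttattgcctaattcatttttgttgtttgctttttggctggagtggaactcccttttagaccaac
Apoa1: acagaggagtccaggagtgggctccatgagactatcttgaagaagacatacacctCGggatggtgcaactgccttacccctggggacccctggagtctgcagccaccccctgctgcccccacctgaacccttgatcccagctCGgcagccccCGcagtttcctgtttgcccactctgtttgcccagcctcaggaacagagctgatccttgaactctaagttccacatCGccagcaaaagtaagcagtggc
Sis: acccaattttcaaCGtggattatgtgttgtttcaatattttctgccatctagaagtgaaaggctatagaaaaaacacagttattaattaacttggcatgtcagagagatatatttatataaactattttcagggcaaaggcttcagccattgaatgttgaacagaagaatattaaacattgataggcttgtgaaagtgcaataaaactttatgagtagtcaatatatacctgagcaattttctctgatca
Vil1 had 5 CpG, Apoa1 had 4, and Fabp2, Sis and Apoa4 had 1 each. The median over 32851 promoters of the same length was 6, so all 5 promoters found lay below it. GC content was 62.8% for Vil1, 58% for Apoa1 and 57.6% for Apoa4, against a median of 52.4%, and 35.6% for Fabp2 and 31.6% for Sis. A CpG count below the median therefore went with GC content above its median in Vil1, Apoa1 and Apoa4 and below it in Fabp2 and Sis. Vil1 and Apoa1 were not far below in CpG, since 44.4% and 37.8% of promoters had fewer. For Fabp2, Sis and Apoa4 it was 7.87%.

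A set of 4 short motifs was searched on both strands in these 250 bases, chosen after the sequences had been seen. A further motif, of HNF1, was searched at first, had no match in the 5 stretches and was left out, so its share of promoters is not given. TTTATNG, a core bound by CDX factors, which govern intestinal identity, was found in Fabp2 at bases -65 to -59 and in Sis, on the opposite strand, at -52 to -46, counted from the start with -1 as the last base before it. It occurs in 9.81% of all promoters. The narrower TTTATTG, tried after these matches were known, matches at the same places and occurs in 4.20% of promoters, a share that makes the matches look rarer than the search did. TATAAA was found in Sis on both strands, at -138 to -133 and -134 to -129, which overlap, and occurs in 12.4% of promoters. The letters AGATAA, known for factors of the GATA family, and CAAAGTCCA, known for HNF4, were in none of the 5 upstream stretches and in 9.99% and 0.384% of all promoters. Matches to Fabp2 and Sis describe letters only.

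The libraries were not alike in the length of their lists. Depth was 27835048 to 41274126 tags and lists held 6136 to 32131 peaks. E14.5 replicate 2 and enterocyte replicate 1 stood apart, with a MACS fragment size of 71 and 67 bp against a tag length of 68 bp, while the others had 191 to 247 bp. Their median peak widths were 238 and 388 bp, against 731 to 921 bp elsewhere. Neither of these libraries had a peak in any window, so the counts of peaks inside the windows are the same without them. Within 20 kb outside the windows they had 1 and 3 peaks.

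H2A.Z peaks in the windows of the enterocyte genes were found mainly in E12.5 epithelium and ISC and hardly at all in enterocytes. The windows held 7 peaks in each E12.5 library, 4 in E14.5 replicate 1 and 0 in E14.5 replicate 2. They held 4 in ISC replicate 1 and 10 in ISC replicate 2. Enterocyte replicate 1 had 0 and enterocyte replicate 2 had 1, in the Vil1 window. The 2 enterocyte libraries were thus below both E12.5 and both ISC libraries, and the E14.5 libraries ranged from no peak to as many as ISC replicate 1. Widened by 20 kb on each side, the windows held 25, 8, 23 and 9 peaks for E12.5, E14.5, ISC and enterocytes. In the map of peaks along the windows, the Fabp2, apolipoprotein and Sis windows are empty in both enterocyte rows.

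**Figure D1:**
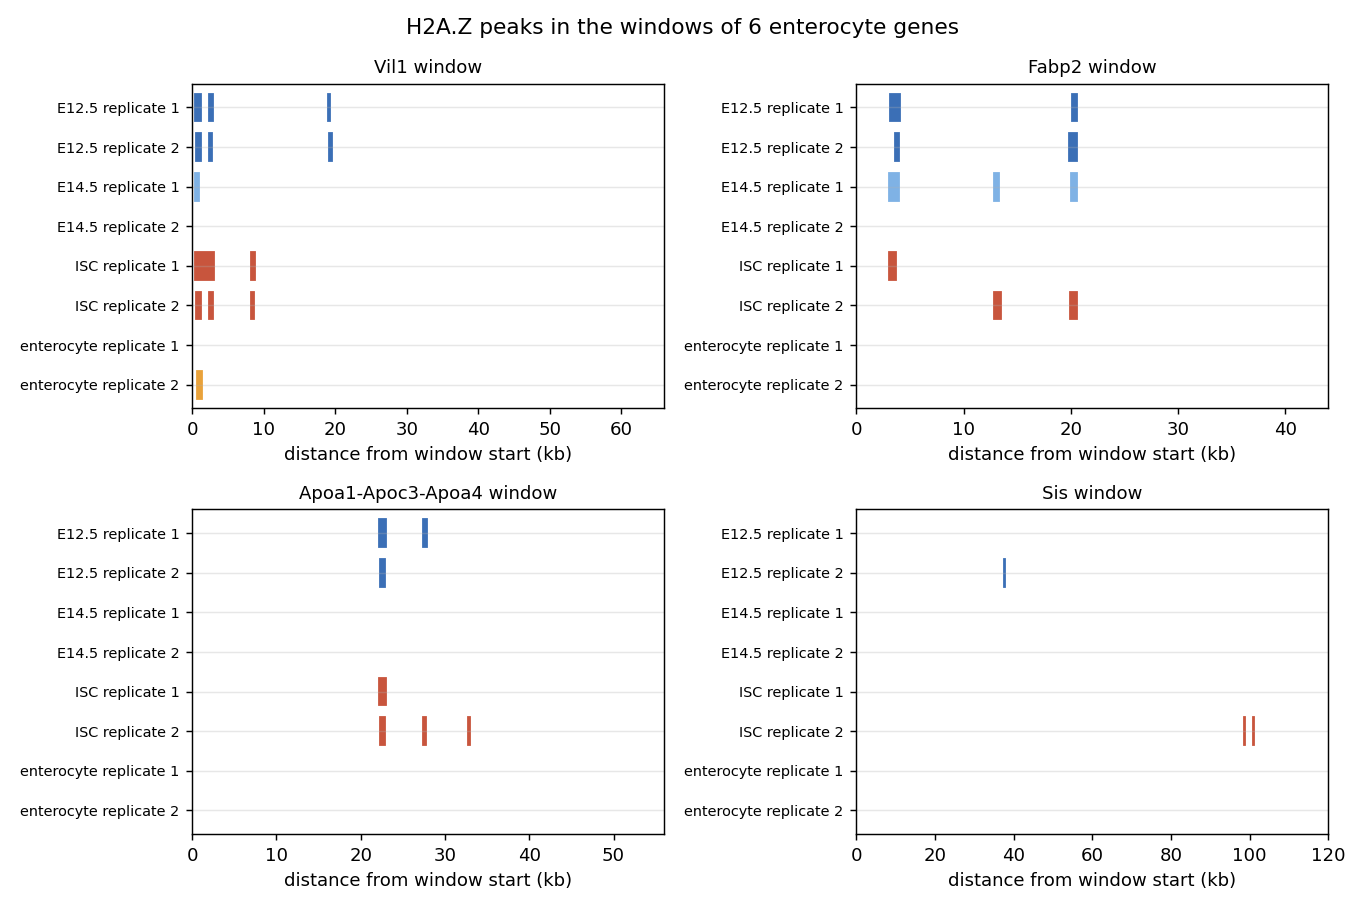
Position of each H2A.Z peak in the 4 windows, as distance from the window start in kb (x axis), in each of the 8 libraries (rows, coloured by stage). Bars are drawn to the width of the peak; both enterocyte rows are empty except for 1 peak at the left edge of the Vil1 window in replicate 2.

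The density of peaks was set beside that of each list over the effective genome of 1870000000 bp named in the file headers. In E12.5 replicates 1 and 2 the windows held 24.5 peaks per Mb in each, against 13.9 and 11.9 per Mb genome-wide. E14.5 replicate 1 held 14.0 against 9.24, and E14.5 replicate 2 held 0 against 3.28. ISC replicate 1 held 14.0 against 14.4, and ISC replicate 2 held 35.0 against 17.2. ISC replicate 1, with 4 peaks, was therefore near its own genome-wide density and ISC replicate 2, with 10, was above its own. Enterocyte replicate 1 held 0 against 7.62 and enterocyte replicate 2 held 3.50 against 11.0, so both lay below theirs. In windows this short, these densities rest on few peaks, 0 and 1 in the enterocyte libraries.

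**Figure D2:**
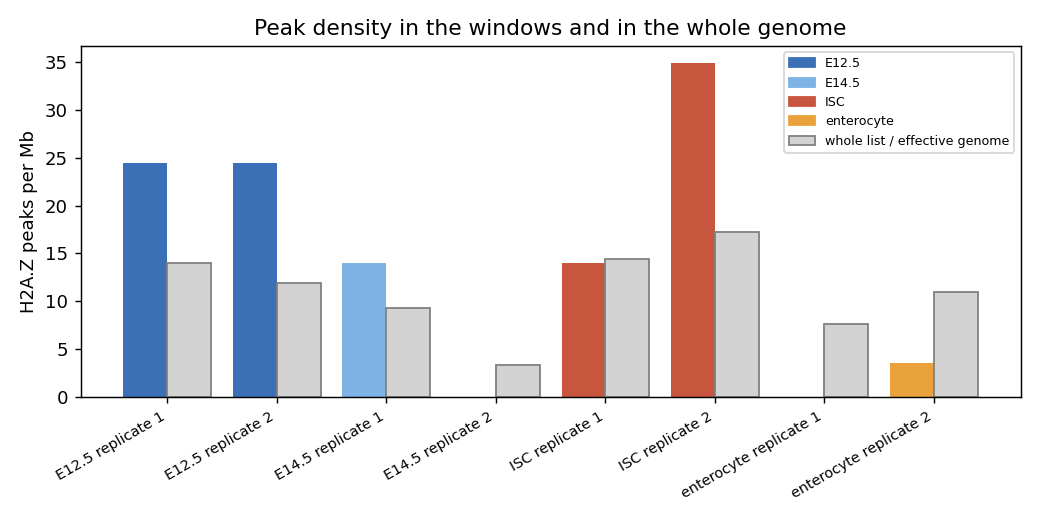
H2A.Z peaks per Mb (y axis, from 0) in the 4 windows together (coloured bars) and in the whole list over the effective genome (grey bars), for each library (x axis). Both E12.5 libraries, E14.5 replicate 1 and ISC replicate 2 are above their grey bar, and both enterocyte libraries are below.

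A lack of enterocyte peaks in stretches of this length was common. When the genome was cut into tiles as long as each window, neither enterocyte library had a peak in 70.6% of tiles of the Vil1 length, 77% of the Fabp2 length, 73.1% of the apolipoprotein length and 60.1% of the Sis length. Tiles were less often filled in both E12.5 and both ISC libraries and empty in both enterocyte libraries, in 3.65% at the Vil1 length, 2.93% at the Fabp2 length and 3.45% at the apolipoprotein length. The Fabp2 and apolipoprotein windows had that pattern, and the Vil1 window had it except for its enterocyte replicate 2 peak. The pattern was read off these windows, and the shares are over all tiles, including those without a peak in any library. They are a description and no test of the windows.

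Fabp2 had the peak of highest fold among the 33. Its rightmost region, at chr3:122597878-122598592, had a fold enrichment over the local background of 4.31 in E12.5 replicate 1, 3.88 in E12.5 replicate 2, 3.04 in E14.5 replicate 1 and 2.99 in ISC replicate 2. No peak was called there in E14.5 replicate 2, ISC replicate 1 or either enterocyte library. The 4 peak centres lay within 91.5 bp of each other, so the same site was called in 3 stages. By fold, these peaks ranked at 27.2% and 22.5% of their lists in the E12.5 libraries (0% being the strongest), 55.8% in E14.5 replicate 1 and 64.0% in ISC replicate 2. The fold is the authors' value for single peaks, and the rank was computed from it within each list. Ranks in lists of different length cannot by themselves show whether the stages differed, which was not tested for single peaks.

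The other Fabp2 regions were weaker. That at chr3:122581047-122582105 had a fold of 3.33 and 3.30 at E12.5, 2.82 in E14.5 replicate 1 and 2.19 in ISC replicate 1, the last ranking at 98.9% of its list. That at chr3:122590821-122591533 was called in E14.5 replicate 1 at 2.96 and in ISC replicate 2 with 2.80, and in no E12.5 library. The ISC libraries agreed on none of the 3 Fabp2 regions: replicate 1 had the first, and replicate 2 the other two. Peaks covered 3.35% and 2.49% of the window at E12.5, 4.40% and 0% at E14.5, 1.48% and 3.17% in ISC and 0% in both enterocyte libraries. Every E12.5 and ISC library was therefore above both enterocyte libraries, whereas the E14.5 replicates lay at opposite ends.

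At the apolipoprotein cluster, the first region lay at chr9:46038195-46039053. As peaks were joined here, it was the only one of the 12 with peaks in both E12.5 and both ISC libraries and in no other. Its fold was 4.18 and 3.03 at E12.5 and 3.07 and 2.94 in ISC, with ranks of 30.5%, 66.0%, 57.5% and 66.5%. The 4 centres lay within 89 bp. The second region, at chr9:46043341-46043851, reached 2.70 in E12.5 replicate 1 and 2.51 in ISC replicate 2, both near the end of their lists (ranks of 91.7% and 92.1%). The third, at chr9:46048721-46049013, was called in ISC replicate 2 alone, with a fold of 2.42 and a rank of 95.9%. Coverage of the window was 2.32% and 1.02% at E12.5, 1.53% and 2.20% in ISC, and 0% in all E14.5 and enterocyte libraries. Apoa1, Apoc3 and Apoa4 share this window, and their separate parts in the peaks cannot be given here.

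In the Vil1 window, all peaks lay in the left 20 kb. The first region, at chr1:74436342-74439086, began 0.342 kb inside the window edge and was the most widely shared of the 12, with peaks in 6 libraries. It held 9 of the 13 peaks of the window and the only enterocyte peak, and whether it belongs to Vil1 or to a neighbouring gene was not determined. The highest fold in it was 3.78 and 2.72 at E12.5, 2.53 in E14.5 replicate 1, 3.09 and 3.98 in ISC and 3.45 in enterocyte replicate 2. The enterocyte peak, at 61.3% of its list, was therefore within the range of the other stages in fold. ISC replicate 1 had 1 peak of 2680 bp there, the widest of all 33, where both E12.5 libraries and ISC replicate 2 had 2 separate peaks. The right one of these 2 lay under the wide ISC replicate 1 peak and overlapped no E14.5 or enterocyte peak. Taken by itself, that site had peaks in both E12.5 and both ISC libraries and in no other, which joining hid. The second region, at chr1:74444191-74444722, was called in both ISC libraries alone (2.48 and 2.91), and the third, at chr1:74454971-74455575, in both E12.5 libraries alone (2.81 and 2.47). Their centres lay within 17 and 223.5 bp. Coverage was 2.78% and 2.13% at E12.5, 0.692% and 0% at E14.5, 4.87% and 2.81% in ISC and 0% and 1.09% in enterocytes.

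Sis, in the longest window at 120 kb, had the fewest peaks, each of 294 bp or less. E12.5 replicate 2 had 1 peak of 294 bp, at chr3:72709608-72709901, with a fold of 2.92. ISC replicate 2 had 2, of 266 and 242 bp, at chr3:72770473-72770738 and chr3:72772773-72773014, with a fold of 2.95 and 2.97. None was called in a second library, and the other 6 libraries had no peak. Coverage was 0.245% in E12.5 replicate 2 and 0.423% in ISC replicate 2. Few peaks in a stretch of this length were common, since 51.7% of tiles as long as the Sis window had a peak in at most 2 libraries. That limit was taken from the Sis window itself.

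**Figure D3:**
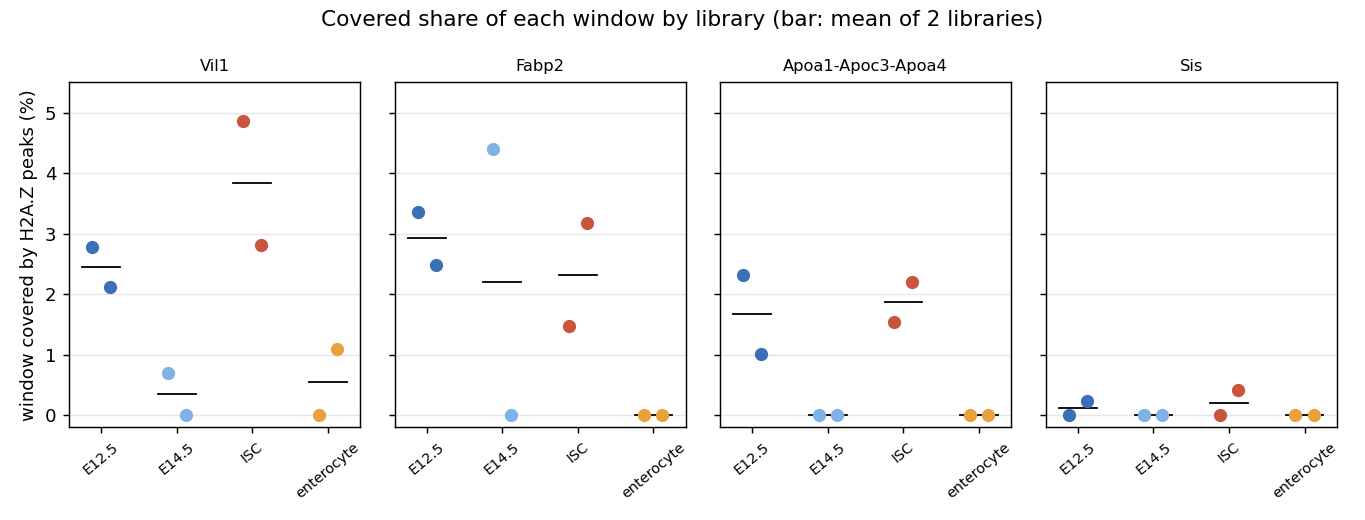
Share of each window covered by H2A.Z peaks in percent (y axis) for every library (points, replicate 1 to the left of replicate 2) by stage (x axis), with the mean of 2 libraries as a black line. Enterocyte points sit at 0% in 3 windows, and the Vil1 window reaches 4.87% in ISC replicate 1.

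Covered shares were compared between adult and embryonic libraries. Age cannot be told apart from the cells used, since the adult side joins ISC and enterocytes and the embryonic side is epithelium as a whole. No window passed the test in either direction. The Vil1 window was covered to 2.19% ± 2.13 in adult and 1.40% ± 1.28 in embryonic libraries (SD, n = 4 a side; p = 0.543 by exact two-sided permutation, 0.904 after adjustment). For Fabp2 the values were 1.16% ± 1.51 and 2.56% ± 1.88 (SD, n = 4 a side; exact p = 0.314, 0.816 after adjustment). For the apolipoprotein cluster they were 0.933% ± 1.11 and 0.835% ± 1.10 and for Sis 0.106% ± 0.212 and 0.0612% ± 0.122 (SD, n = 4 a side; exact p = 1 before and after adjustment for both windows). The smallest p possible was 0.0286, and p-values were adjusted by Benjamini-Hochberg over 22483 features, the 4 windows and 22479 tiles of 50 kb with a peak. Adult and embryonic values overlapped in all 4 windows. Among the tiles, all adult libraries lay above all embryonic ones in 2.81% and below in 0.24%. By this exact test 0% of tiles passed an adjusted 0.05, and 685 tiles (3.05%) and 0 windows passed it unadjusted. Since no p could be below 0.0286, an adjusted 0.05 could be passed only if most features reached that p. The adjusted values therefore decide little. The difference at Vil1 turned from 0.79 to -0.10 percentage points without ISC replicate 1.

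Enterocytes were also set against the other 6 libraries, since the 6 genes are known as enterocyte genes. Mean coverage was lower in enterocytes in each window, with 0.546% against 2.21% ± 1.73 at Vil1, 0% against 2.48% ± 1.55 at Fabp2, 0% against 1.18% ± 1.03 at the apolipoprotein cluster and 0% against 0.111% ± 0.182 at Sis (SD, n = 6). None of these differences passed the test (exact two-sided permutation p = 0.357, 0.214, 0.429 and 1, adjusted p = 1 for each). With 2 libraries against 6 no p below 0.0714 was possible. Enterocyte values overlapped the others in every window, at Fabp2 through E14.5 replicate 2 alone, which had no peak; enterocytes lay below all other libraries in 1.67% of tiles. Neither set of p-values reaches beyond the spread between these libraries, since separate animals or pools are not named for them.

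The 12 regions were called by stage in the same way as all regions of the series. Both E12.5 libraries had 5 of the 12 and both ISC libraries 3, where 43% and 53.7% of all regions had a peak in both. Both E14.5 and both enterocyte libraries had 0, where the background was 11.8% and 25.4%. At least 1 enterocyte library had 1 of the 12, the Vil1 region at the window edge, against 45.3% of all regions. Of the 5 regions with peaks in both E12.5 libraries, 4 had none in either enterocyte library, against 33.2% of such regions in the series. Of the 3 with peaks in both ISC libraries, it was 2, against 28.9%. With so few regions these shares are a description.

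Between E12.5 and E14.5, 2 regions were called on the E12.5 side, with a peak in each E12.5 library and none at E14.5 (background 10.4%), the third Vil1 and the first apolipoprotein region, and 0 the reverse (0.127%). Without E14.5 replicate 1 the count was 5. Without either E12.5 library or without ISC replicate 1 it was 3. Leaving out ISC replicate 1 took away its peak of 2680 bp, so the first Vil1 region came apart and there were 13 regions. The right part had a peak in both E12.5 libraries and in no E14.5 library. The second Fabp2 region became the single reverse case without E14.5 replicate 2. Between E14.5 and ISC, 2 regions were called on the ISC side (21.8%), the second Vil1 and the first apolipoprotein region, and 0 on the side of E14.5 (0.247%). The ISC count was 7 without ISC replicate 1. Leaving out a library of a compared stage loosens the call to the other library of that stage. Such counts cannot be set beside the shares of all regions given here.

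From ISC to enterocytes, the same 2 regions, the second of Vil1 and the first of the apolipoprotein cluster, had peaks in both ISC and neither enterocyte library (15.5%), and 0 regions showed the reverse (0.233%). The count was 9 of 13 regions without ISC replicate 1, which had 4 of the 12 regions against 9 in ISC replicate 2. That looser call rests on ISC replicate 2 alone on the ISC side, and its share over all regions is not given. Between E12.5 and enterocytes, 4 regions were called on the E12.5 side (14.3%): the third of Vil1, the first and the rightmost of Fabp2 and the first of the apolipoprotein cluster. None was called on the enterocyte side (2.55%). Between E12.5 and ISC, 1 region was called on each side (6.52% and 14.1%), the third Vil1 region in E12.5 and the second in ISC. Without ISC replicate 1, these counts were 2 and 5, and the E12.5 count was also 2 without E12.5 replicate 1 or ISC replicate 2. No region had peaks in all embryonic and no adult libraries (0.193%) or the reverse (1.8%).

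Where peaks were called in these windows, they were weak and narrow for their lists. Of the 33, 6 exceeded the median fold of their own list and 4 its median width. The fold ranged from 2.19 to 4.31 and the rank from 22.5% to 98.9%, and 11 peaks were in the last 25% of their list while 1 was in the first 25%. That one was the Fabp2 peak at chr3:122597878-122598592 in E12.5 replicate 2. The −log10 q against the input was 1.37 to 11.0, with 1 peak above 10, in the first Vil1 region in ISC replicate 2. When lists were cut to the 6136 strongest peaks by p, the length of the list of E14.5 replicate 2, no peak was left in any window. The median region spanned 568.5 bp, against 796 bp over the series, and 4 of 12 had a peak in at least 4 libraries, against 42%.

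**Figure D4:**
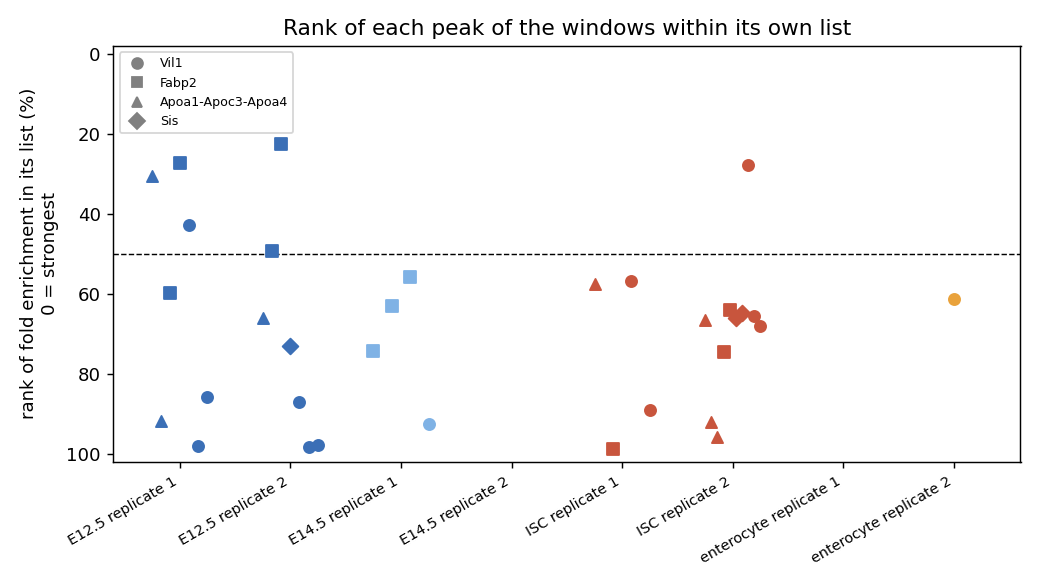
Rank by fold enrichment of each of the 33 peaks within its own list in percent (y axis, 0 at the top is the strongest), by library (x axis, coloured by stage) and window (symbol). Most points are below the dashed line at 50%, and those above it are 3 peaks of E12.5 replicate 1, 2 of E12.5 replicate 2 and 1 of ISC replicate 2.

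Peaks of the same libraries lay close outside 3 of the windows, some of them strong. Within 20 kb outside the Vil1 window, a region at chr1:74433060-74434119 had a fold of 4.97 and 6.12 in the enterocyte libraries, ranking at 8.73% and 1.58% of their lists. Its fold was 4.24 and 3.47 at E12.5, 2.94 in E14.5 replicate 1 and 4.28 and 3.67 in ISC. To the right of the apolipoprotein window, a region at chr9:46080672-46081747 had a peak in all 8 libraries, with a fold of 2.55 to 5.09, and another at chr9:46090256-46091808 in all but E14.5 replicate 2, with 4.87 and 4.74 in enterocytes. To the right of the Fabp2 window, a region at chr3:122626195-122627823 had a peak in 5 libraries, with a fold of 4.22 in enterocyte replicate 2 and 2.73 to 3.47 at E12.5 and in ISC. In RefSeq's gene order, Ctdsp1 precedes and Usp37 follows Vil1, and Apoa5, Zpr1 and Bud13 follow Apoa4. Which gene these flanking regions belong to was not determined either. Sis had no peak of any library within 20 kb of its window, and its nearest enterocyte peaks lay 349.777 and 349.571 kb to the left and 719.827 and 68.635 kb to the right.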

How the data were processed

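H2A.Z ChIP-seq peak lists of 8 libraries were used, and the 6 input samples entered only through the authors' calling. Both enterocyte libraries shared an input, as did both ISC libraries, while each embryonic library had its own. Calls within an adult stage are therefore not fully independent. Per the file headers, the authors called broad peaks for each library against input in MACS 2.1.0.20140616 with a q-value limit of 0.05. The tools given in the submitters' processing notes are bcl2fastq 1.8.4, Bowtie 1.1.2, SAMtools 1.2, with build mm9. Each peak's pileup is a coverage signal, its fold enrichment a ratio to local background and its −log10 p and q the evidence against input, all deposited by the authors. A peak that was not called can reflect depth, input or fragment size as well as a lack of H2A.Z. Peak positions, widths and folds of the windows were read with Python 3.11.15 and pandas 2.3.3. Peaks that overlapped or touched were joined into regions, and every peak and region in a window is accounted for. Covered shares were tested by exact two-sided permutation with Benjamini-Hochberg adjustment, checked against scipy 1.17.1 and tested on simulated data. The alternatives were −log10 q of at least 2 or 10, equal list lengths, windows trimmed or widened by 20 kb, 50% overlap, merging within 500 bp, coverage per Mb, a replicate block and each library left out. Leaving out both libraries of short fragment size was added after seeing the data. The genes, windows and comparisons were chosen with earlier results of these data known. Other absorptive genes and cell type markers were not analysed here, since they need mm9 gene positions.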

Additional observations from a re-analysis of the deposited data

Results flagged for a closer look

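The Sis window gave a single library standing apart on each side. Its covered share was 0.245% in E12.5 replicate 2, with 0% in the other 3 embryonic libraries, and 0.423% in ISC replicate 2, with 0% in the other 3 adult libraries. Both were found by a gap test of the highest and lowest library, which finds about 1 in 20 groups by chance. It was run on 8 groups, and a group with 3 equal values meets it whatever the size of the fourth.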

How the results depend on the processing

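None of the 8 differences in covered share passed 0.05 in the exact test or under any alternative, though with enterocytes against the rest, with a replicate block or with any library left out the test cannot reach it. Mean enterocyte coverage was below the mean of the other libraries together in each window under every alternative that gave a value. It was not below every single stage. In the main setting, coverage at Vil1 was 0% and 1.09% in enterocytes against 0.692% and 0% at E14.5. At the apolipoprotein cluster and Sis, E14.5 and enterocytes both had 0%. Adult minus embryonic coverage reversed for the apolipoprotein cluster per Mb covered in the library (-4.43 bp per Mb), and for Sis per Mb (-0.0312 bp per Mb) and with trimmed windows (-0.00875 points). With 1 library left out it ranged from -0.10 to 1.52 points at Vil1, from -2.25 (without E14.5 replicate 2) to -0.785 (without E14.5 replicate 1) at Fabp2, from -0.324 to 0.593 at the apolipoprotein cluster and from -0.0612 to 0.106 at Sis; the cause was not tested. The enterocyte difference at Sis moved from -0.111 to -0.0490 points without ISC replicate 2, and no other enterocyte difference moved by over 1.5 times with 1 library left out. Same-numbered libraries of different stages did not deviate together (r of -0.538 to 0.219 across 50 kb tiles). Those of E14.5 and enterocytes, with r of -0.538, deviated in opposite directions. The libraries of short fragment size in these stages are E14.5 replicate 2 and enterocyte replicate 1, and a link was not tested. A replicate block kept the adult minus embryonic differences at 0.79, -1.40, 0.10 and 0.04 points for Vil1, Fabp2, the apolipoprotein cluster and Sis (exact permutation p of 0.556, 0.389, 1 and 1).

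Peak counts followed the threshold and the window. For E12.5, E14.5, ISC and enterocytes, main counts of 14, 4, 14 and 1 became 9, 2, 13 and 1 at a −log10 q of at least 2 and 0, 0, 1 and 0 at 10. They became 6, 1, 6 and 0 (13 in all) in trimmed windows, where no Vil1 peak was left, and 25, 8, 23 and 9 (65 in all) in widened ones, where 1 of the 8 and 3 of the 9 came from the libraries of short fragment size. With lists of equal length every count of peaks and regions was 0, and at a −log10 q of at least 10 there was 1 peak, 1 region and 0 regions called between stages. Leaving out 1 library gave 2 to 5 regions on the E12.5 side against E14.5 and 0 to 1 on the E14.5 side, which was also 1 without both libraries of short fragment size. It gave 2 to 7 on the ISC side against E14.5, 2 to 9 against enterocytes and 1 to 5 against E12.5, and 1 to 2 on the E12.5 side against ISC. A call resting on 1 library of a stage is looser, and its share over all regions is not given. Lists of equal length, a −log10 q of at least 10 or trimming left some windows without peaks, and no difference could be given there.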
